A study of Mus musculus with 8 samples.

Results

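The G1 cyclins and their kinases examined here are the D-type cyclins Ccnd1, Ccnd2 and Ccnd3, the E-type cyclins Ccne1 and Ccne2, and the cyclin-dependent kinases Cdk2, Cdk4 and Cdk6. They are 8 of the 13307 genes with a probe set of their own. Every probe set annotated to 1 of these 8 genes alone was taken, which gave 21 of the 30506 probe sets in the value table: 3 for Ccnd1, 7 for Ccnd2, 1 for Ccnd3, 2 for Ccne1, 1 for Ccne2, 1 for Cdk2, 3 for Cdk4 and 3 for Cdk6. They were measured in primary mouse embryonic fibroblasts, cells cultured straight from embryos without immortalisation, of which 4 lines were wild-type (WT1 to WT4) and 4 lacked both cryptochromes, Cry1-/- and Cry2-/- (Cry DKO, DKO1 to DKO4). Cryptochromes repress transcription within the circadian clock. Each line was independent of the others and was hybridised to 1 Affymetrix array. Both genotypes had a near-C57BL/6J background, proliferated without synchronisation in 10% serum at 3% oxygen and received no treatment. The values therefore average over all cell cycle phases of a culture, and no clock phase was set. The labels name no Cre driver, so the deficiency is read as that of the whole embryo, and they give no age or sex of the embryos.

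D-type cyclins are the mitogen-sensing cyclins: growth factor signalling raises their synthesis, and they bind and activate Cdk4 and Cdk6. These complexes begin the phosphorylation of the retinoblastoma protein RB and its relatives, which releases E2F transcription factors. E2F then induces the E-type cyclins, whose partner Cdk2 completes RB phosphorylation and starts DNA replication. The inhibitors of the INK4 family (Cdkn2a to Cdkn2d) block Cdk4 and Cdk6, and those of the CIP/KIP family (Cdkn1a to Cdkn1c) act mainly on cyclin-Cdk2 complexes.

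Of the 8 genes, 2 passed the test between genotypes, both higher in the Cry DKO lines: Ccne2 by 0.66 and Cdk2 by 0.37 on the log2 scale. The cyclins and kinases that act first in G1, namely the 3 D-type cyclins with Cdk4 and Cdk6, did not pass, and neither did Ccne1. The test was limma's moderated test with Benjamini-Hochberg adjustment over 9511 genes and a threshold of 0.05, with 1 probe set per gene, that of highest mean signal. Across all those genes 9.18% passed in either direction and 4.95% were higher in the Cry DKO lines, and 2 of 8 is to be read against those shares. The median difference of the 8 genes was 0.10, beside -0.01 for all tested genes. With every probe set tested on its own, 20 of the 21 lay above the signal floor of 6.06 and 2 of those 20 passed, beside 6.81% of all tested probe sets. The groups did not overlap in the same 2 probe sets, beside 15.4% of all tested probe sets.

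The data set as a whole bears on these values in 4 ways. The deposited values are taken as log2 and as already normalised between arrays, since the array medians lay between 6.78 and 6.79. The targeted genes overlapped between genotypes: Cry1 had a signal of 6.79 ± 0.40 in WT against 6.29 ± 0.31 without cryptochromes (SD, n = 4 each, exact permutation p = 0.114), and Cry2 was 7.20 ± 0.18 and 6.87 ± 0.20 (exact permutation p = 0.0571). No source used here names the position of their probes relative to the deleted parts, and they do not check the labels. DKO4 stood apart from the other Cry DKO lines: it was the lowest of the 8 lines in 22.6% of tested genes and the highest in 18.3%, and its median absolute distance from the mean of the other lines of its group was 0.143, against 0.0966 to 0.119 for the other lines. Transcripts of macrophages and blood cells were higher in the Cry DKO lines in 11 of 19 tested markers and lower in 0, beside 4.95% of all tested genes higher. Their median difference was 0.80. The mean of the 19 ran from 7.93 to 8.60 in WT and up to 9.57, from 8.60, in Cry DKO lines. Markers of fibroblasts had a mean of 12.58 to 12.78 in the WT lines and 12.44 to 12.57 in the Cry DKO lines, with no overlap. Their differences had a median of -0.15, and 0 of them were positive. Of these markers, 0 of 9 tested passed with limma, and 3 had an unadjusted p under 0.05, all lower. In bulk RNA, more cells of a type and more RNA per cell cannot be told apart.

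**Figure D1:**
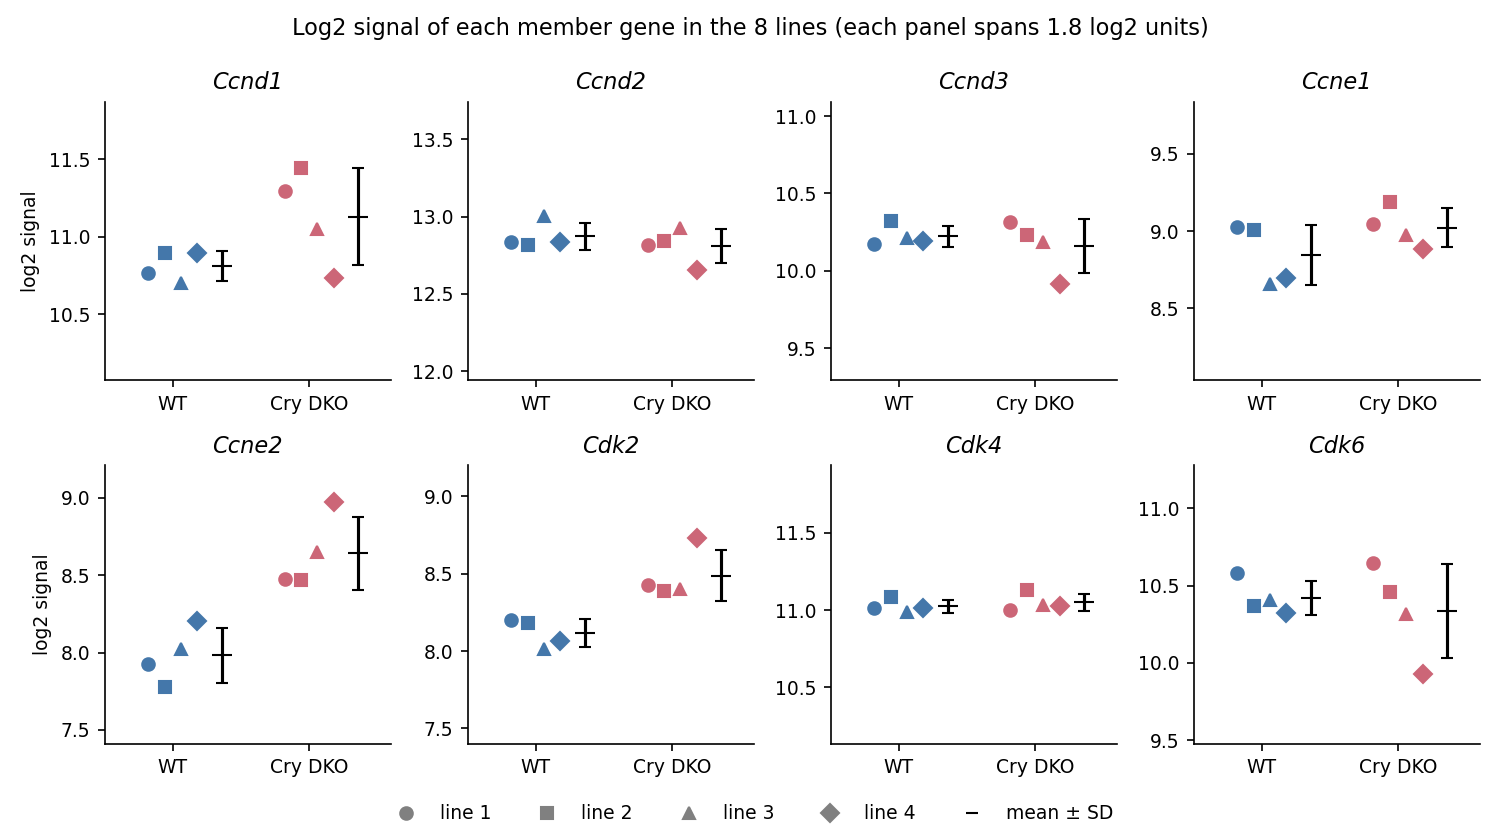
Log2 signal (vertical axis) of each of the 8 genes in the 4 WT and 4 Cry DKO lines (horizontal axis), with the mean and SD of each group beside the points; marker shapes give the line number and every panel spans the same range. All 4 Cry DKO lines lie above all 4 WT lines for Ccne2 and Cdk2, and DKO4 is the highest Cry DKO line in those panels and the lowest for Ccnd1, Ccnd2, Ccnd3, Ccne1 and Cdk6.

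Ccnd1, the D-type cyclin most closely tied to growth factor signalling, had higher signal in 3 of the 4 Cry DKO lines and did not pass. Its probe set of highest mean (1417420_at) read 10.77, 10.90, 10.70 and 10.89 in WT1 to WT4 and 11.29, 11.45, 11.05 and 10.73 in DKO1 to DKO4. DKO1, DKO2 and DKO3 lay above every WT line, whereas DKO4 lay below WT1, WT2 and WT4. The difference was 0.32 (SE 0.13, limma adjusted p = 0.148), a fold of 1.25 with a 95% interval of 1.03 to 1.51. The second probe set (1417419_at) read 9.52, 9.48, 9.37 and 9.64 in the WT lines and 9.73, 9.84, 9.80 and 9.64 in DKO1 to DKO4, which differ by 0.25 (adjusted p = 0.0639 over probe sets). The third (1448698_at) read 10.48, 10.59, 10.55 and 10.63 in the WT lines and 10.95, 11.05, 10.62 and 10.30 in DKO1 to DKO4, which differ by 0.17 (adjusted p = 0.493). In all 3 probe sets DKO4 was the lowest Cry DKO line, by 0.53, 0.15 and 0.57 below the mean of the other 3 in the order given.

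Whether Ccnd1 passed changed with the lines kept and with their weights. Without that line its difference was 0.45 (SE 0.09, limma adjusted p = 0.0171), while 6.67% of genes passed in that fit, and leaving out any other single line gave 0.21 to 0.34 with no call. With all 8 lines kept and arrays weighted by their quality, the difference was 0.38 (adjusted p = 0.0520), and probe set 1417419_at passed (0.27, adjusted p = 0.0405 over probe sets). With the mean of the macrophage and blood cell markers as a covariate, the difference of Ccnd1 was 0.12 (SE 0.19).

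Ccnd2, the D-type cyclin with the most probe sets here, had 7, of which none passed in the comparison of the 4 lines with 4. Its probe set of highest mean (1416122_at) read 12.83, 12.82, 13.00 and 12.83 in WT1 to WT4 and 12.82, 12.84, 12.92 and 12.66 in DKO1 to DKO4. The groups overlapped. DKO4 lay below all WT lines, and DKO1 (12.8185) lay only just below the lowest of them, WT2 (12.8196). The difference was -0.06 (SE 0.06, 95% interval -0.20 to 0.07, adjusted p = 0.579), and the interval of the fold for this probe set ran from 0.871 to 1.05. The 7 probe sets all had a negative difference, from -0.23 to -0.03, and they share 1 transcript, so they are not 7 separate results. The lowest of these (1416123_at) read 10.33, 10.19, 10.35 and 10.13 in WT and 10.13, 9.97, 10.15 and 9.84 in Cry DKO lines (adjusted p = 0.124 over probe sets), a fold of 0.855 that lies outside the interval of the first probe set. DKO4 was the lowest of all 8 lines in each of the 7.

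Ccnd3, the D-type cyclin prominent in blood cells and muscle, was measured by 1 probe set, which read 10.17, 10.32, 10.21 and 10.19 in WT1 to WT4 and 10.31, 10.23, 10.18 and 9.92 in DKO1 to DKO4. DKO1 to DKO3 lay within the WT range and DKO4 below it. The difference was -0.06 (SE 0.08, 95% interval -0.24 to 0.12, adjusted p = 0.683), and 0.02 without DKO4.

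Whether the 3 D-type cyclins moved by different amounts was tested within each line. Ccnd1 minus Ccnd3 was 0.38 higher in the Cry DKO lines, and the groups did not overlap (0.49 to 0.70 in WT and 0.82 to 1.21 in Cry DKO lines). Its exact two-sided permutation p was 0.0286, the smallest that 4 lines against 4 allow, and 0.1 after Benjamini-Hochberg adjustment over the 7 pairs of genes compared. Ccnd1 minus Ccnd2 was also 0.38 higher (exact permutation p = 0.0571, adjusted 0.1), with DKO4 inside the WT range. The change of Ccnd2 relative to Ccnd3 was -0.00 (exact permutation p = 1). None of the 7 pairs passed after adjustment.

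Cdk4, the kinase partner of D-type cyclins in most cells, had the smallest difference of the 8 genes. Its probe set of highest mean (1422441_x_at, a type of Affymetrix probe set whose probes can match other transcripts) read 11.02, 11.08, 10.98 and 11.01 in WT1 to WT4 and 11.00, 11.13, 11.03 and 11.03 in DKO1 to DKO4. The 8 lines lay within a narrow band and the groups were interleaved. The difference was 0.03 (SE 0.05, adjusted p = 0.790), with a 95% interval of the fold from 0.944 to 1.10. The other probe sets gave -0.01 (1422439_a_at) and -0.04 (1422440_at), so the sign depends on the probe set.

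The promoter of Cdk4 is shown because it holds 4 copies of the E-box CACGTG, the element bound by the clock activators CLOCK and ARNTL, which cryptochromes repress, and also by MYC. The sequence is the 250 bases before the RefSeq start of transcription in GRCm38.p6 (chr10:127063285-127063534, plus strand), printed 5′ to 3′ with the E-boxes in capitals. The window of Cdk6 follows for comparison (chr5:3343643-3343892, plus strand) and holds 1 E-box.

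Cdk4: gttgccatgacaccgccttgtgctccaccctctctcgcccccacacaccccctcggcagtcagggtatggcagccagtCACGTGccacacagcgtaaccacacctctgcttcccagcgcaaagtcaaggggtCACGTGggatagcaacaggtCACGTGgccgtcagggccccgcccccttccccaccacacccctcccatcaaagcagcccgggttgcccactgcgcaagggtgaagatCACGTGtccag
Cdk6: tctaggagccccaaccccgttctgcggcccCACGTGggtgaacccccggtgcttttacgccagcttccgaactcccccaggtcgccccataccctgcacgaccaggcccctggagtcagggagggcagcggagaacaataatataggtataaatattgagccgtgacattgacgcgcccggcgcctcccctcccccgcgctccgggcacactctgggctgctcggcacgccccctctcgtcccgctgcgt

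The E-boxes of Cdk4 begin at positions -172, -118, -98 and -11 from the start, and that of Cdk6 at -220. CACGTG reads the same on both strands. Among 32851 promoter windows of the same length (250 bases before and 50 after the start), 7.15% held at least 1 E-box and 0.0244%, or 8 windows, held 4 or more. Of the tested genes with a window, 955 held at least 1 E-box, of which 49 were higher and 40 lower in the Cry DKO lines, beside 386 higher and 317 lower of all 7794. The 3 tested genes with at least 4 were Cdk4, Lamp1 and Mfsd1, of which 0 were higher and 1 lower. These matches describe letters and not binding, and Cdk4 did not pass in any of the fits tried.

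**Figure D2:**
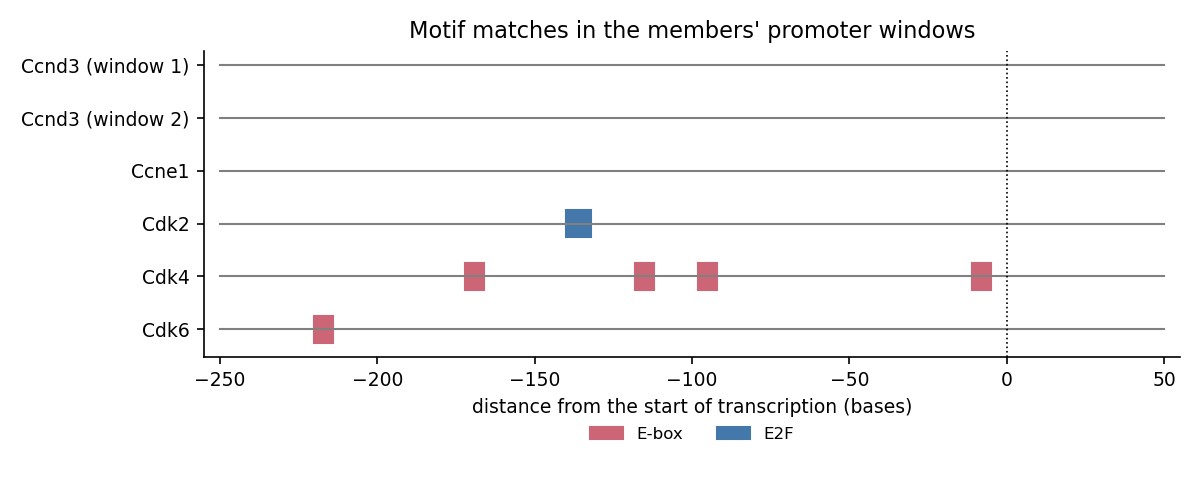
Positions of E-box and E2F-type matches (coloured blocks) along the RefSeq promoter windows of Ccnd3 (2 windows), Ccne1, Cdk2, Cdk4 and Cdk6, on an axis of bases from the start of transcription. Cdk4 has 4 E-boxes, Cdk6 has 1, Cdk2 has 1 E2F-type match and the windows of Ccnd3 and Ccne1 have none.

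Cdk6, the other partner of D-type cyclins, read 10.58, 10.37, 10.41 and 10.32 in WT1 to WT4 and 10.64, 10.46, 10.32 and 9.93 in DKO1 to DKO4 in its probe set of highest mean (1435338_at). The Cry DKO lines spread on both sides of the WT lines, with DKO1 above all of them and DKO3 and DKO4 below. The difference was -0.08 (SE 0.13, 95% interval of the fold 0.778 to 1.14, adjusted p = 0.721), and 0.05 without DKO4. With the macrophage and blood cell marker mean as a covariate it was -0.39 (SE 0.16, adjusted p = 0.267), outside that interval and still short of the threshold. A second probe set (1455287_at) read 10.17, 10.13, 10.18 and 10.13 in the WT lines and 10.17, 10.16, 10.24 and 10.11 in DKO1 to DKO4, which differ by 0.02. The third (1460291_at) read 4.87 to 5.41 in WT and 4.56 to 5.75 in Cry DKO lines and was not tested, being below the floor. Relative to Cdk6, Cdk4 was 0.11 higher in the Cry DKO lines (exact permutation p = 0.571).

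Ccne1, the founding member of the E-type cyclins, did not pass. Its probe set of highest mean (1441910_x_at) is also of the type whose probes can match other transcripts. It read 9.02, 9.01, 8.66 and 8.70 in WT1 to WT4 and 9.05, 9.19, 8.97 and 8.88 in DKO1 to DKO4. WT1 and WT2 lay inside the Cry DKO range. The difference was 0.18 (SE 0.10, 95% interval -0.05 to 0.40, adjusted p = 0.312). The other probe set (1416492_at) read 8.19, 8.12, 8.15 and 7.93 in the WT lines and 8.23, 8.26, 8.29 and 8.12 in DKO1 to DKO4, which differ by 0.13 (adjusted p = 0.380 over probe sets).

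Ccne2, the second E-type cyclin and an E2F target, rose in the Cry DKO lines and had the largest difference of the 8 genes. Its only probe set (1422535_at) read 7.92, 7.78, 8.02 and 8.20 in WT1 to WT4 and 8.47, 8.47, 8.65 and 8.97 in DKO1 to DKO4. Every Cry DKO line lay above every WT line, with DKO4 the highest. The means were 7.98 ± 0.18 and 8.64 ± 0.24 (SD, n = 4 each). The difference of 0.66 (SE 0.12, limma adjusted p = 0.0101) is a fold of 1.58, with a 95% interval of 1.31 to 1.91. It ranked 100th by size among the 471 genes that rose, whose median was 0.44.

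The call on Ccne2 held when any 1 of the 8 lines was left out (0.55 to 0.73, adjusted p 0.0112 to 0.0321). It ended without moderation of the variances (adjusted p = 0.0746), where 317 of all 9511 genes passed. It also ended with the macrophage and blood cell marker mean as a covariate, where 37 of all 9511 genes passed. Without either change 873 passed. The difference of Ccne2 with that covariate was 0.74 (SE 0.20, adjusted p = 0.122). Set against Ccne1 within each line, Ccne2 was 0.48 higher in the Cry DKO lines (exact permutation p = 0.143), and the groups overlapped, so a different response of the E-type cyclins was not shown.

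Cdk2, the kinase partner of E-type cyclins, also rose. Its only probe set (1416873_a_at) read 8.20, 8.18, 8.01 and 8.07 in WT1 to WT4 and 8.43, 8.39, 8.40 and 8.73 in DKO1 to DKO4. All Cry DKO lines lay above all WT lines, and DKO4 lay apart above the other 3. The means were 8.12 ± 0.09 and 8.49 ± 0.16 (SD, n = 4 each), and the difference of 0.37 (SE 0.09, limma adjusted p = 0.0307) is a fold of 1.29, with a 95% interval of 1.12 to 1.49. It ranked 313th among the 471 genes that rose.

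The call on Cdk2 was near the threshold. It ended in 5 of the 8 fits that left out 1 line, namely each WT line (adjusted p 0.0529, 0.0557, 0.0849 and 0.0701 without WT1 to WT4) and DKO4, without which the difference was 0.29 (SE 0.08, adjusted p = 0.05004, just above the threshold). With every probe set tested on its own, where its adjusted p was 0.0370, the call ended in all 8 such fits (adjusted p 0.0517 to 0.101) and without the intensity trend (0.0522). Over genes it also ended with sex as a term (0.33, adjusted p = 0.0573), with the macrophage and blood cell marker mean as a covariate (0.42, SE 0.15, adjusted p = 0.202) and without moderation (adjusted p = 0.0927). By Xist and Y-linked transcripts 1 WT line and 2 Cry DKO lines were female, WT1, DKO1 and DKO4. Relative to Cdk4 within each line, Cdk2 was 0.35 higher in the Cry DKO lines with no overlap (-2.97 to -2.82 in WT and -2.74 to -2.30 in Cry DKO lines, exact permutation p = 0.0286, adjusted 0.1 over the 7 pairs). Relative to Cdk6 it was 0.46 higher (exact permutation p = 0.0571, adjusted 0.1).

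The promoter window of Cdk2 is shown because it was the only one among the windows matched to these genes with an E2F-type word. Its 250 upstream bases (chr10:128705052-128705301, minus strand, GRCm38.p6, RefSeq) are printed 5′ to 3′ with the match in capitals.

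Cdk2: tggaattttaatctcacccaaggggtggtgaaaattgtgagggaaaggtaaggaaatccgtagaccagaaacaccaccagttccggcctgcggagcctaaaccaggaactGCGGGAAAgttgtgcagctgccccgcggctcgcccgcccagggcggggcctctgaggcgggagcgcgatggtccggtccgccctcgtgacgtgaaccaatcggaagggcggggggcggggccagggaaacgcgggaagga

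The match, GCGGGAAA, begins at position -140 and is the opposite strand of TTTCCCGC. The E2F-type words searched on both strands were TTTCCCGC, TTTCGCGC, TTTGCCGC and TTTGGCGC, and 2.26% of all windows held at least 1. The cyclic AMP element TGACGTCA (1.79% of windows) and the AP-1 element TGACTCA (5.2% of windows) were in none of the 6 windows matched to 5 of the 8 genes. Ccnd1, Ccnd2 and Ccne2 have no sequence shown here.

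**Figure D3:**
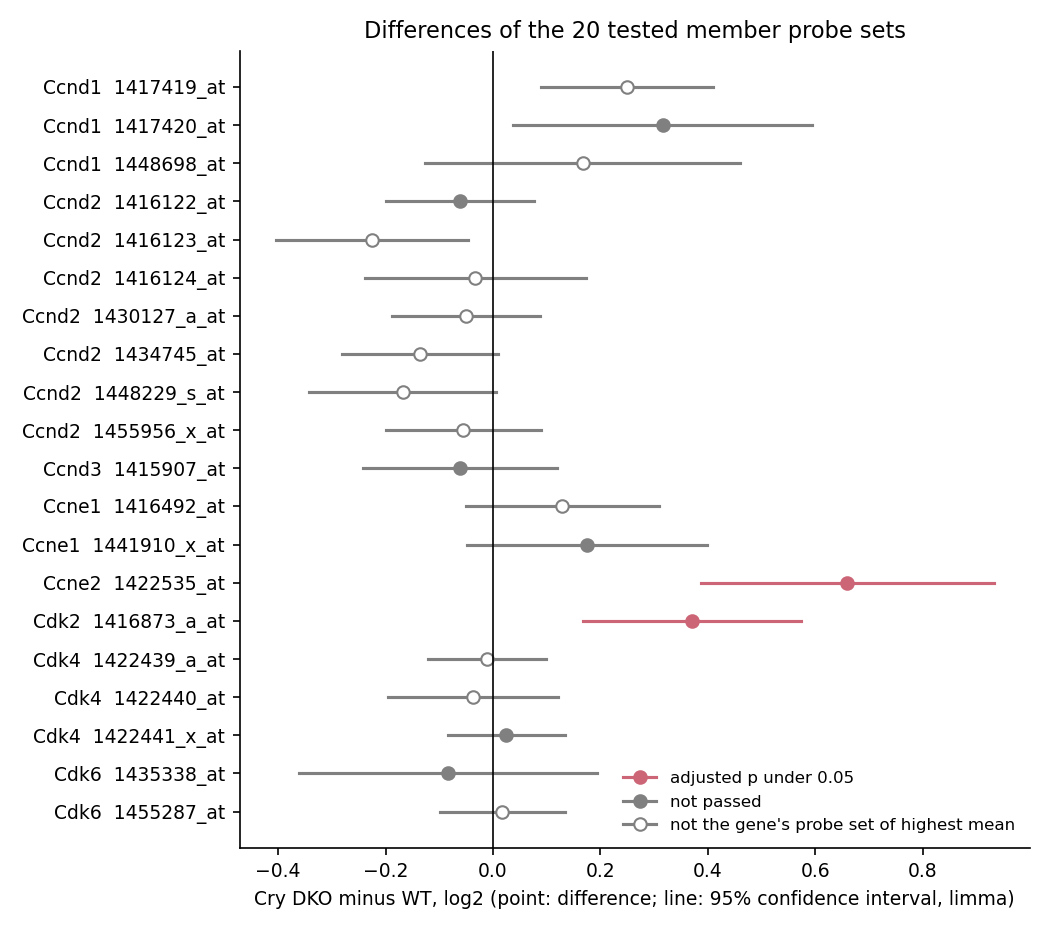
Difference between Cry DKO and WT lines (points, log2) with its 95% confidence interval (lines) for the 20 member probe sets above the floor; filled points are each gene's probe set of highest mean and the coloured ones passed at an adjusted p under 0.05. Only Ccne2 (0.66) and Cdk2 (0.37) are coloured, and the 7 probe sets of Ccnd2 all lie left of 0.

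The lines within a genotype differed among themselves in a pattern shared by several of these genes. In 16 of the 20 tested probe sets DKO4 was the lowest Cry DKO line (80% beside 31.1% of all tested probe sets), including all 11 of the D-type cyclins. It was the lowest of all 8 lines in 12 of 20 (60% beside 21.0%). Because 12 of the 20 measure Ccnd2, Ccnd1 or Cdk6, these counts repeat a few transcripts and no test was made. By gene, DKO4 lay below the mean of DKO1 to DKO3 by 0.53 for Ccnd1, 0.20 for Ccnd2, 0.33 for Ccnd3 and 0.54 for Cdk6. It lay above that mean by 0.44 for Ccne2 and 0.33 for Cdk2.

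**Figure D4:**
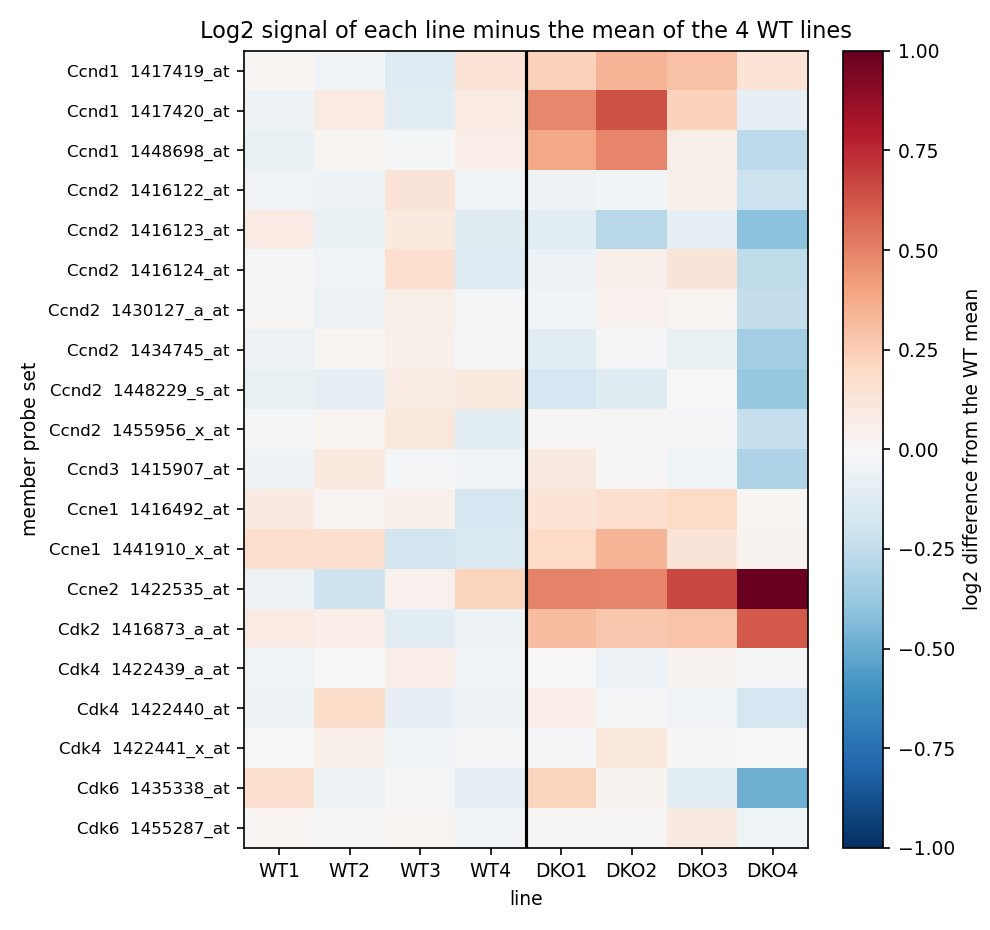
Colour map of the log2 signal of each line (columns) minus the mean of the 4 WT lines, for the 20 member probe sets above the floor (horizontal bands); red is higher and blue lower. DKO4 is blue across Ccnd2, Ccnd3 and Cdk6 (1435338_at) and red for Ccne2 and Cdk2, while DKO1 and DKO2 are red for Ccnd1.

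The deviations of the lines from their genotype means, which contain these same offsets of DKO4, showed the opposition in some pairs of genes. Over the 8 lines, Pearson's r was 0.84 between Ccnd1 and Ccnd3 and 0.81 between Ccnd3 and Cdk6. It was -0.87 between Ccnd3 and Ccne2, -0.80 between Ccne2 and Cdk6 and -0.87 between Ccnd2 and Cdk2. Ccne2 and Cdk2, both of which rose, had an r of 0.45, and Ccne2 and Ccne1 an r of -0.78. Other pairs showed it weakly or not at all. Between Ccnd1 and Ccnd2 r was 0.31, and between Ccnd2 and Ccne2 it was -0.37. Ccne1 had an r of 0.57 with Ccnd1 and of 0.03 with Cdk2. These describe 8 lines that share arrays across genes, and DKO4 weighs heavily in them.

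The tested genes most like each member by this measure were found over all 9511. For Ccnd1 they were Cyhr1 (r = 0.997), Phldb1 (0.993) and Ipo13 (0.989). For Ccnd2 they were Kat14 (0.970), Rrp8 (0.960) and Fam117a (0.960), and for Ccnd3 Phf2 (0.985), Ppp3cb (0.983) and Rbm15b (0.981). Each value describes a shared pattern of the lines and not a shared level. For Ccne1 they were Imp4 (0.982), Mvd (0.978) and Hnrnph1 (0.967), and for Ccne2 Tmem167 (0.994), Gnpnat1 (0.988) and Opa1 (0.986). For Cdk2 they were Tmem9 (0.980), Pih1d1 (0.971) and Magt1 (0.964), for Cdk4 Baz2a (0.982), Pafah1b3 (0.976) and Mrps5 (0.966), and for Cdk6 Fiz1 (0.995), Mmp9 (0.993) and Dip2b (0.989). With 8 lines and 9511 genes, values this high are reached for every member.

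The inhibitors that act on these kinases changed in both directions. Of 7 tested, 4 fell, 1 rose and 2 did not pass, with a median of -0.42. Of all 9511 tested genes, 402 fell and 471 rose. Cdkn1c (p57), an imprinted CIP/KIP inhibitor, read 8.92, 9.11, 9.09 and 8.68 in WT1 to WT4 and 7.66, 7.60, 8.07 and 7.78 in DKO1 to DKO4. Every Cry DKO line lay below every WT line, and the gene fell by 1.17 (SE 0.12, limma adjusted p = 0.000477), a fold of 0.444. Cdkn2b (p15), an INK4 inhibitor of Cdk4 and Cdk6, fell by 0.52 (SE 0.07, adjusted p = 0.00211). Cdkn1a (p21), the p53-induced inhibitor, fell by 0.42 (SE 0.10, adjusted p = 0.0305), and its lowest line was DKO4 at 11.64 against 12.09 to 12.19 in the other Cry DKO lines.

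Cdkn2c (p18), also of the INK4 family, went the other way: it rose by 0.48 (SE 0.10, adjusted p = 0.0149), with 7.48 to 7.82 in WT and 8.06 to 8.33 in Cry DKO lines. The remaining call, named after its values were seen, was Cdkn2a, the locus of p16 and p19ARF, which fell by 0.42 (SE 0.11, adjusted p = 0.0382). Cdkn1b (p27) had a difference of 0.08 (adjusted p = 0.780). Without DKO4, 3 of the 7 fell and 1 rose. With the macrophage and blood cell marker mean as a covariate, 1 fell and 0 rose. That fit called 37 of all 9511 genes, so calls that ended in it, here and below, are not particular to any list.

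Among the RB family and E2F factors, through which the members act, 1 of 12 tested rose, 1 fell and 10 did not pass. Of all tested genes 9.18% passed in either direction. The median of the 12 was 0.05. Rbl1 (p107), a pocket protein that is itself an E2F target, rose by 0.39 (SE 0.09, adjusted p = 0.0190). E2f6, a repressor of the family, fell by 0.23 (SE 0.06, adjusted p = 0.0423). RB itself (Rb1) had a difference of 0.11 and E2f1 one of -0.01, both short of the threshold (adjusted p 0.641 and 0.965). Without DKO4, 2 of the 12 rose (Rbl1 and Tfdp1, the E2F partner DP1) and the call on E2f6 ended. With the macrophage and blood cell marker mean as a covariate 0 of the 12 passed with limma (3 at an unadjusted p under 0.05), as was the case without moderation (6 at an unadjusted p under 0.05).

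Of the genes that switch the kinases on or off, 1 of 9 tested passed, beside 9.18% of all tested genes. Wee1, the kinase that phosphorylates and inhibits Cdk1 and Cdk2 and a known clock-controlled gene, rose by 0.48 (SE 0.08, adjusted p = 0.00562), with 8.37 to 8.65 in WT and 8.90 to 9.09 in Cry DKO lines. Cdc25a, the phosphatase that opposes it on Cdk2, had a difference of -0.01 (adjusted p = 0.977). The call on Wee1 held without DKO4 and ended with the macrophage and blood cell marker mean as a covariate, where 0 of the 9 passed and 1 had an unadjusted p under 0.05. Of 12 genes for the turnover of G1 cyclins and their inhibitors, 1 rose, beside 4.95% of all tested genes. It was Cks1b, a cofactor of the SKP2 ubiquitin ligase for p27, which rose by 0.17 (SE 0.05, adjusted p = 0.0427). Fbxw7, which targets cyclin E for degradation, had a difference of -0.00. Without DKO4, 0 of these 12 passed with limma and 2 had an unadjusted p under 0.05, and both counts were the same with the marker covariate.

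Of the transcription factors and coactivators listed as inducers of D-type cyclins, 0 of 13 rose and 1 fell, with a median of 0.09. Of all tested genes 9.18% passed in either direction. At an unadjusted p under 0.05 with limma, 1 was higher and 2 were lower. Yap1, the effector of the Hippo pathway, fell by 0.17 (SE 0.05, adjusted p = 0.0414), with 11.24 to 11.27 in WT and 11.01 to 11.12 in Cry DKO lines. Myc had a difference of 0.13 and Jun one of 0.09 (adjusted p 0.349 and 0.475). Without DKO4, 1 of 13 rose (Ets2, a target of RAS signalling) and 0 fell, so the call on Yap1 ended. Neither gene changed direction: DKO1 to DKO3 still lay below every WT line for Yap1. With all lines Ets2 already had a difference of 0.33 (adjusted p = 0.0753). With the marker covariate 0 of 13 passed with limma and 1 had an unadjusted p under 0.05.

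The list with the most calls lay downstream of the members. Of 21 tested genes of S phase that are driven by E2F, 18 rose and 0 fell, beside the 4.95% of all genes that rose, with a median of 0.41. The list was chosen with earlier results of these data known, so its count is not an independent test. Tk1 (thymidine kinase) rose by 0.57 (SE 0.07), Cdt1 (which licenses replication origins) by 0.53 (SE 0.08), Rrm2 (a subunit of ribonucleotide reductase) by 0.51 (SE 0.06) and Pcna (the replication clamp) by 0.31 (SE 0.04), with adjusted p of 0.00196, 0.00300, 0.00167 and 0.00283. The 4 Cry DKO lines were close together for Pcna, at 11.90 to 11.91, above 11.53 to 11.65 in WT. Over the whole list the mean ran from 8.67 to 8.86 in WT and from 9.14 to 9.26 in Cry DKO lines, with no overlap. Without DKO4, 16 of 21 rose. With the macrophage and blood cell marker mean as a covariate the median was 0.33. In that fit 0 of 21 passed with limma, beside 37 of all 9511 genes, and 15 had an unadjusted p under 0.05.

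Of the cyclins and kinases outside the 8, 4 of 24 rose and 1 fell, with a median of 0.02. Of all tested genes 4.95% rose and 9.18% passed in either direction. The 4 of this list that rose act in S phase and mitosis: Cdk1 by 0.41 (SE 0.06), Ccna2 (cyclin A2) by 0.44 (SE 0.07), Ccnb2 (cyclin B2) by 0.46 (SE 0.07) and Ccnf, named after its values were seen, by 0.46 (SE 0.13). Cyclin G1 (Ccng1), a p53 target, fell by 0.17 (SE 0.04). Without DKO4 the calls on Ccnf and Ccng1 ended, leaving Cdk1, Ccna2 and Ccnb2. With the macrophage and blood cell marker mean as a covariate 0 of 24 passed with limma and 5 had an unadjusted p under 0.05. The size of the rise of Ccna2, which reached 9.93 to 10.12 in Cry DKO lines from 9.50 to 9.67 in WT, lay between those of Cdk2 and Ccne2. The share of cells in each cell cycle phase was not analysed here, so more cells in S phase and more transcript per cell cannot be told apart in any of these groups of genes.

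**Figure D5:**
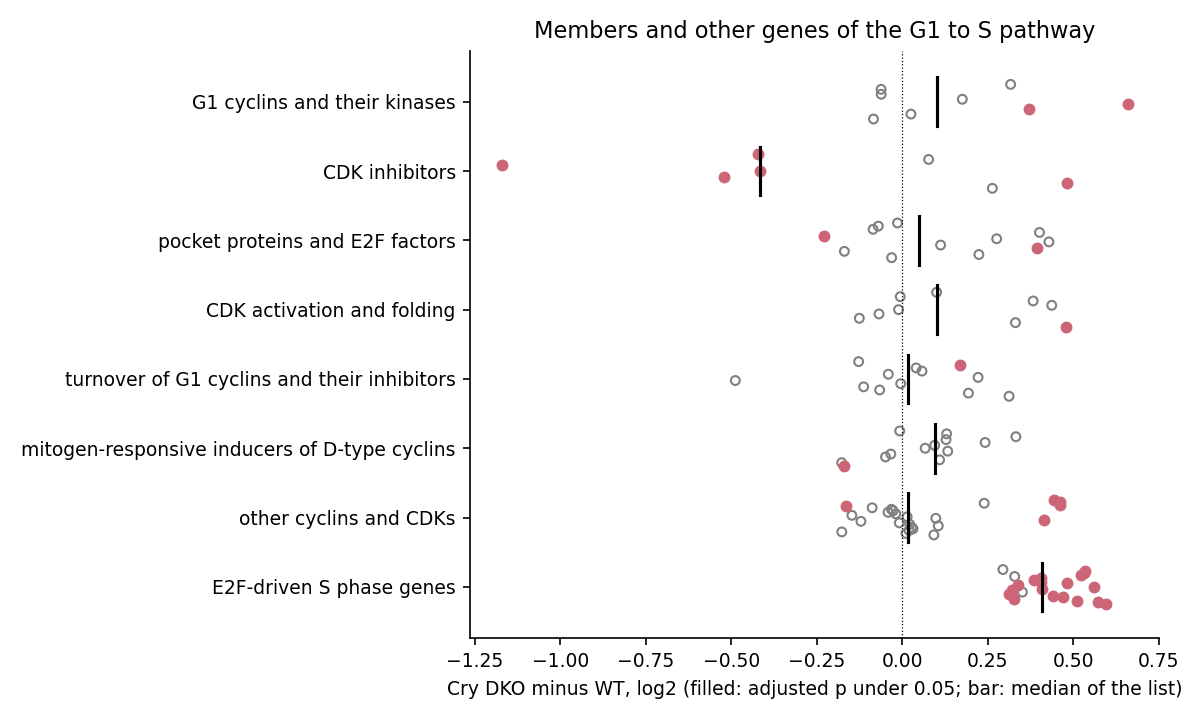
Difference between Cry DKO and WT lines (horizontal axis, log2) of every tested gene in the 8 G1 genes and 7 lists of related genes (vertical axis); filled points passed at an adjusted p under 0.05 and bars mark each list's median. The S phase list lies wholly to the right of 0 (median 0.41), the CDK inhibitors lie mostly to the left (median -0.42), and the members have 2 filled points.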

How the data were processed

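Total RNA of 8 lines was labelled and hybridised to Affymetrix arrays, 1 array per line. The deposited values are log2 signals, with the base inferred from their range (0.0675 to 14.3), so every fold rests on it. GCOS is named in the submitters' processing notes without a version. Summarisation, normalisation and the choice of probe sets were not given in any source used here. Values normalised between arrays hide a change that all transcripts share.

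The platform annotation paired 24838 probe sets with 1 gene, 658 with several and 4949 with none, and 61 were controls. Symbols were updated through GRCm38.p6 (24757 found). Probe sets with a mean below the 40th percentile (6.06) were left out, and the probe set of highest mean stood for each gene. The comparison of genotypes used limma 3.58.1 in R 4.3.3 (intensity trend, no covariate), with Benjamini-Hochberg adjustment over all 9511 genes or, separately, 16333 probe sets. Pairs of genes and Cry1 and Cry2 were compared with exact two-sided permutation tests over 70 assignments. Each p-value reflects how far the independent lines of a genotype differ from each other. Precision is limited by the number of arrays and by dim signals: the median SD within a group was 0.435 where a probe set's mean was under 6 and 0.0883 where it was over 10.

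The genes named are the 8 members, Cry1 and Cry2, up to 4 called genes of smallest p in each list (up to 2 of smallest p where none was called) and the 3 genes most like each member; Rb1, E2f1, Cdc25a, Fbxw7, Myc, Jun, Cdkn1b, Cdkn2a, Ccnf, Tfdp1, Ets2, Lamp1 and Mfsd1 are named outside that rule, after their values were seen. The members and lists were chosen with earlier results of these data known. Marker lists not described with the results are of endothelium (0 tested), epithelium (1 tested), muscle (2) and neural cells (1); with limma 0 passed, and 3 of these 4 genes had an unadjusted p under 0.05.

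Tested on simulated data with 9511 genes for the Cry DKO and WT comparison, the fit called 64.4% of genes changed by 0.5. It called 93.2% at a change of 1, 100% at 2 and 0.105% where nothing changed. The simulated noise was independent between genes, without the patterns that real lines share across genes. These shares therefore need not hold for the real arrays. Alternatives covered normalisation, the floor, the choice of probe set, empirical Bayes options, a replicate block, array weights, sex and marker covariates, other thresholds and each line left out. Whether equal line numbers mark a shared origin is not given. Deviations of equally numbered lines correlated at 0.36, 0.12, 0.23 and -0.01, and 6 of 8 lines correlated best with their own number. With no shared origin given, the numbers were not taken as pairs in the main fit. The replicate block is the alternative that uses them.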

Additional observations from a re-analysis of the deposited data

Results flagged for a closer look

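Within 42 groups of 4 lines, 4 member values lay far from the other 3 lines of their group. Chance alone marks about 1 in 20 such groups, and 2 of the 4 values belong to DKO4.

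For Cdk2, DKO4 read 8.73, above 8.39 to 8.43 in the other Cry DKO lines. For Ccnd2 (1455956_x_at), DKO4 read 11.8, below 12.00 to 12.03. For the Ccnd2 probe set of highest mean (1416122_at), WT3 read 13.0 against 12.82 to 12.83 in the other WT lines. For Cdk4 (1422440_at), WT2 read 10.9 against 10.59 to 10.63.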

How the results depend on the processing

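Ccne2 kept its direction under 24 alternatives (0.55 to 0.74) and its call under 21, and Cdk2 its direction under 24 (0.29 to 0.42) and its call under 15. Genes called numbered 317 without moderation, 520 with sex as a term, 37 with the macrophage covariate, 210 at a threshold of 0.01, 1437 at 0.10, and 386 to 684 with each line left out. Member genes called numbered 0 without moderation, with the macrophage covariate and at 0.01, 1 with sex as a term and 1 to 2 with each line left out. At an unadjusted p under 0.05 the first 2 of these fits had 2 and 3 member genes. Probe sets called numbered 393 without moderation and 482 to 859 with each line left out, and member probe sets 1 without an intensity trend, 0 without moderation and 1 to 3 with each line left out. The cause was not tested, except that leaving out lines leaves fewer samples.

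The replicate block gave 1051 genes and the same 2 member genes, Ccne2 and Cdk2, and 3 member probe sets, with Ccnd2 1416123_at added (-0.23, adjusted p = 0.0324 over probe sets); 6 of 8 lines correlated best with their own number.

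Differences that changed sign were all small and uncalled. With each line left out, Ccnd3 (1 probe set) ran from -0.11 to 0.020, Cdk4 from -0.0019 to 0.045 and Cdk6 from -0.19 to 0.052. Cdk4 was -0.0076 as the mean of its probe sets and -0.036 in its probe set of largest SD. Single probe sets ran from -0.087 to 0.041 (Ccnd2 1416124_at, 0.0036 with array weights), -0.080 to 0.012 (1430127_a_at), -0.093 to 0.0018 (1455956_x_at), -0.027 to 0.0097 (Cdk4 1422439_a_at), -0.070 to 0.024 (1422440_at) and -0.0075 to 0.038 (Cdk6 1455287_at).

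Among pairs, Ccnd1 minus Ccnd2 was 0.35 and Cdk2 minus Cdk6 0.40 with means of probe sets (both exact permutation p = 0.0286). In the paired sign-flip test, whose smallest p is 0.125, Ccnd1 minus Ccnd3 was 0.38 and Cdk2 minus Cdk4 0.35. With each line left out, Ccnd1 minus Ccnd2 ran from 0.28 to 0.46, Ccnd1 minus Ccnd3 from 0.30 to 0.43, Ccnd2 minus Ccnd3 from -0.051 to 0.048, Cdk2 minus Cdk4 from 0.26 to 0.41, Cdk2 minus Cdk6 from 0.24 to 0.58 and Cdk4 minus Cdk6 from -0.020 to 0.23.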
